A study of Mus musculus with 9 samples.

Results

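The Ikaros family comprises 5 zinc finger transcription factors, encoded in the mouse by Ikzf1 (Ikaros), Ikzf2 (Helios), Ikzf3 (Aiolos), Ikzf4 (Eos) and Ikzf5 (Pegasus). All 5 genes were looked up by symbol in the deposited expression table and all were present, among 13698 genes tested. They were read in bulk RNA-seq of regulatory T cells (Treg cells) sorted from mouse spleen and lymph node, with 9 libraries in 3 groups of 3. The deficient cells were YFP+ MHCII- cells of Foxp3 Cre-YFP/X females with floxed LRF and Thpok alleles (LRFffThpokff). The genetic control cells were YFP+ MHCII- cells of Foxp3 Cre-YFP/X females in which both factors were wild type. The animal control cells were YFP- MHCII- CD25hi cells of the deficient females themselves; they expressed the unmodified Foxp3 allele and so kept both factors. All mice were on the C56Bl6/129 mixed background, and the labels state no ages. Thpok (Zbtb7b) and LRF (Zbtb7a) are BTB zinc finger factors, and Cre was driven from the X-linked Foxp3 locus, so it acts in cells that have switched on the modified allele. The deficient and genetic control cells therefore share the modified Foxp3 allele and the YFP gate, whereas the animal controls differ from both in the allele and in the gate. The question was whether the family's transcripts differ in Treg cells without Thpok and LRF.

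Ikaros family proteins bind DNA through zinc fingers near the amino terminus and pair with each other through a further set of fingers at the carboxyl terminus. Ikaros and Aiolos are best known as regulators of lymphocyte development that recruit the Mi-2/NuRD chromatin remodelling complex, whereas Helios and Eos are typical of Treg cells: Helios stabilises the Treg programme and marks many thymus-derived Treg cells, and Eos is a Foxp3 corepressor partner. Pegasus is the most distant member and recognises a different DNA element. Several members are also removed by the cereblon ubiquitin ligase when cells are given thalidomide analogues.

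The second DNA-binding zinc finger is an example of how closely the members are related. The coding DNA of that finger is given 5′ to 3′ on the coding strand, from GENCODE M21 transcripts on GRCm38, with the cysteine and histidine codons that hold the zinc ion in capitals. The fingers were found as a cysteine codon, 2 codons, a cysteine codon, 12 codons, a histidine codon, 3 to 5 codons and a last histidine or cysteine codon. They lie at chr11:11754024-11754086 (plus strand) in Ikzf1, chr1:69570581-69570643 (minus strand) in Ikzf2, chr11:98488940-98489002 (minus strand) in Ikzf3, chr10:128640229-128640291 (minus strand) in Ikzf4 and chr7:131392501-131392563 (minus strand) in Ikzf5.
Ikzf1: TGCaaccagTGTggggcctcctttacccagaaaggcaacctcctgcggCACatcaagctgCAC
Ikzf2: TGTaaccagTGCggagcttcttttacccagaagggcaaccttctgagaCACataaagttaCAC
Ikzf3: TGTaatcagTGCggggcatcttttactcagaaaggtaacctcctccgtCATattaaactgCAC
Ikzf4: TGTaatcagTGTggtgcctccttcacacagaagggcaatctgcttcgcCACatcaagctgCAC
Ikzf5: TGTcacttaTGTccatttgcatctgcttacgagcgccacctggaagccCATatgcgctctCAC
Among Ikzf1 to Ikzf4 these 63 bases were 76.2% to 84.1% identical, with Ikzf1 and Ikzf4 the closest pair at 53 of 63 bases. Ikzf5 matched the other members at 26 to 30 bases (41.3% to 47.6%). These values depended on the finger. In the first finger Ikzf1 to Ikzf4 were 63.5% to 85.7% identical, with Ikzf2 and Ikzf4 closest, and Ikzf5 matched them at 39.7% to 50.8%. Fingers were paired between members by their order in the coding sequence. In Ikzf5 the third finger began at codon 140 and the fourth at codon 366. In Ikzf1 the fourth began at codon 223 and the fifth at codon 480. Fingers of the same order in Ikzf5 and the other members thus need not be equivalent, and the Ikzf5 identities depend on that pairing. The pattern occurred 6 times in the coding sequences of Ikzf1, Ikzf2 and Ikzf3 and 5 times in those of Ikzf4 and Ikzf5. The longest run shared exactly by protein-coding transcripts of any 2 members was 32 bases, a repeat in Ikzf2 and Ikzf4 that was not wholly coding in Ikzf2. Ikzf1 and Ikzf3 shared 26 bases (gatccctttgagtgtaacatgtgtgg) that were coding in Ikzf1. The longest run within coding sequence alone was not sought for every pair. The values are per gene, so short isoforms without DNA-binding fingers, which several members make, are summed with the full-length forms.

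Thpok transcript was the check of the labels. Zbtb7b stood at 0.366, 0.266 and 0.147 CPM (reads of a gene scaled to the library total) in deficient cells, against 92.1, 103 and 149 CPM in genetic controls and 76.9, 106 and 98.6 CPM in animal controls. Its fall passed the test against both controls (limma-trend with Benjamini-Hochberg adjustment over all genes; log2 fold change -8.85, adjusted p = 1.03e-04, and -8.58, adjusted p = 8.75e-05, or 0.170 with the mouse as a fixed block). Zbtb7a differed by 0.01 and -0.31 and was not called. The sources used here do not say which exons of it were floxed, so its row does not test the deletion. The 8 listed T cell and Treg genes (Foxp3, Il2ra, Ctla4, Cd3e, Cd3d, Cd3g, Cd4 and Ikzf2 itself) were above the lowest value in every library. They summed to 3796 to 4117 CPM in deficient cells, 4109 to 4742 in genetic controls and 5746 to 6509 in animal controls. The sum holds Ikzf2 and general T cell genes, so it does not test Treg identity. Library depth is unknown, as only normalised values were deposited.

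No member of the family passed the test between deficient and control Treg cells at a false discovery rate of 0.05. Against genetic controls 0 of 5 members were called, where 119 of 13698 genes (0.869%) were called in the whole table, 0.336% higher and 0.533% lower. At an unadjusted p under 0.05 the count was also 0 of 5, against 10.6% of all genes, and in 0 of 5 did the libraries of the 2 groups not overlap, against 15.7% of all genes. Against animal controls 0 of 5 members were called, beside 122 genes (0.891%) in the table, 0.307% higher and 0.584% lower. Here 1 member, Ikzf2, had an unadjusted p under 0.05 (11.9% of all genes did) and groups that did not overlap (15.9% of all genes). Between genetic and animal controls 0 of 5 were called, beside 5 genes (0.0365%, all of them lower), and Ikzf2 was again the 1 member with an unadjusted p under 0.05 (6.62% of all genes) and without overlap (10.4% of all genes). The median log2 difference of the 5 members was 0.14 against genetic controls, 0.21 against animal controls and 0.17 between the controls, where the medians over all genes were 0.04, 0.04 and -0.02. The 3 comparisons share libraries and are not independent.

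**Figure D1:**
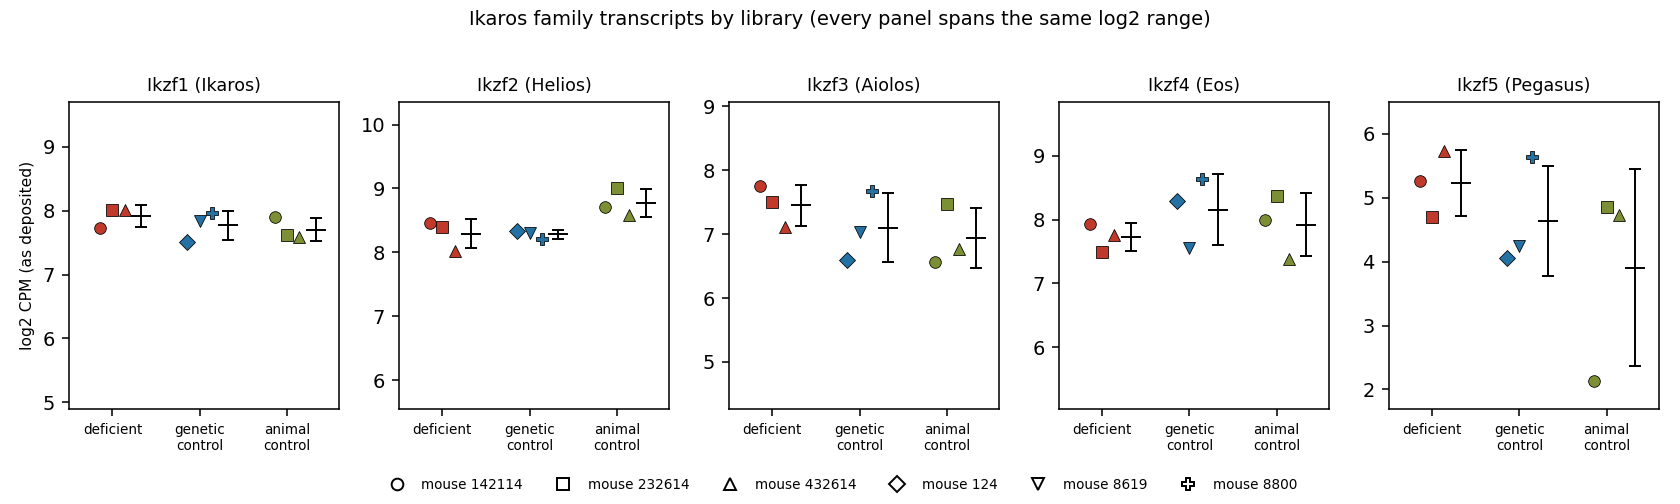
Level of each Ikaros family gene (log2 CPM; every panel spans the same log2 range but not the same levels) in each of the 9 libraries, with the mean and SD of the log2 values beside each group (n = 3 each). Colours mark groups and shapes mark mice. Ikzf2 is the member whose animal control libraries, at 385 to 516 CPM, all lie above those of the deficient cells (261 to 351 CPM) and genetic controls (295 to 321 CPM); in the other members the groups overlap.

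Helios, the member most often used to mark thymus-derived Treg cells, had overlapping levels in both YFP+ groups. Ikzf2 measured 351, 336 and 261 CPM in deficient cells, 321, 317 and 295 CPM in genetic controls and 420.0, 516 and 385 CPM in animal controls. The deficient and genetic control libraries interleaved, and each animal control library was higher than all of them. The means were 316 ± 48.3 CPM in deficient cells and 311 ± 14.3 CPM in genetic controls (SD, n = 3 each), a log2 fold change of 0.01 ± 0.16 (SE) with a 95% interval of -0.34 to 0.36 and an adjusted p of 0.998. In linear terms that interval runs from 0.793 to 1.28 times the genetic control level, so larger differences in either direction lie outside it.

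Against animal controls, at 440.4 ± 67.7 CPM (SD, n = 3), Ikzf2 in deficient cells had a log2 fold change of -0.48 ± 0.16, or 0.717 times the animal control level (95% interval -0.83 to -0.13; limma unadjusted p = 0.0119, adjusted p = 0.250). The sign was the same in 3 of 3 mice: within mice 142114, 232614 and 432614 the log2 differences were -0.26, -0.62 and -0.56. With the mouse as a fixed block the adjusted p was 0.395. Genetic controls, which kept Thpok and LRF, differed from animal controls by nearly the same amount (-0.49 ± 0.16, 95% interval -0.84 to -0.14, unadjusted p = 0.0104, adjusted p = 0.575). Neither difference passes the adjusted threshold, and the unadjusted p against animal controls went above 0.05 without animal control 232614, the library with the highest Ikzf2 (0.0509), and without the variance trend (0.0832).

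Other values also differed among the 3 groups, not always in the same grouping of libraries as Ikzf2. Foxp3 itself, the factor that defines the Treg lineage, read 35.9, 34.1 and 26.5 CPM in deficient cells, 38.1, 36.9 and 24.8 CPM in genetic controls and 961, 754 and 999.7 CPM in animal controls. It fell in both YFP+ groups relative to animal controls (log2 fold changes -4.81, adjusted p = 5.18e-05, or 0.0953 with the mouse as a fixed block, and -4.78, adjusted p = 5.55e-05); the modified allele carries the inserted cassette, and no label says how its reads were counted. Il2ra, which encodes the CD25 used to sort the animal controls, read 551, 451 and 416 CPM in deficient cells, 788, 584 and 657 CPM in genetic controls and 800.4, 738 and 771 CPM in animal controls. Unlike in Ikzf2, the genetic and animal controls overlapped in Il2ra and the deficient libraries lay below both. Summed B cell marker transcripts (9 of 12 listed genes, mostly Ighm) were 698 to 912 CPM in deficient cells, 701 to 1102 CPM in genetic controls and 1315 to 1852 CPM in animal controls. The median log2 fold change of the 9 B cell genes was 0.73 in deficient cells against genetic controls, -1.33 in deficient cells against animal controls (2 with an unadjusted p under 0.05) and -2.01 in genetic controls against animal controls (3 with such a p). In the latter 2 comparisons 11.9% and 6.62% of all genes had such a p. The allele and the gate cannot be told apart in the Ikzf2 difference, and the part of B cell RNA in it was not tested. In bulk samples, fewer Helios-positive cells and less Ikzf2 RNA per cell cannot be told apart.

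**Figure D2:**
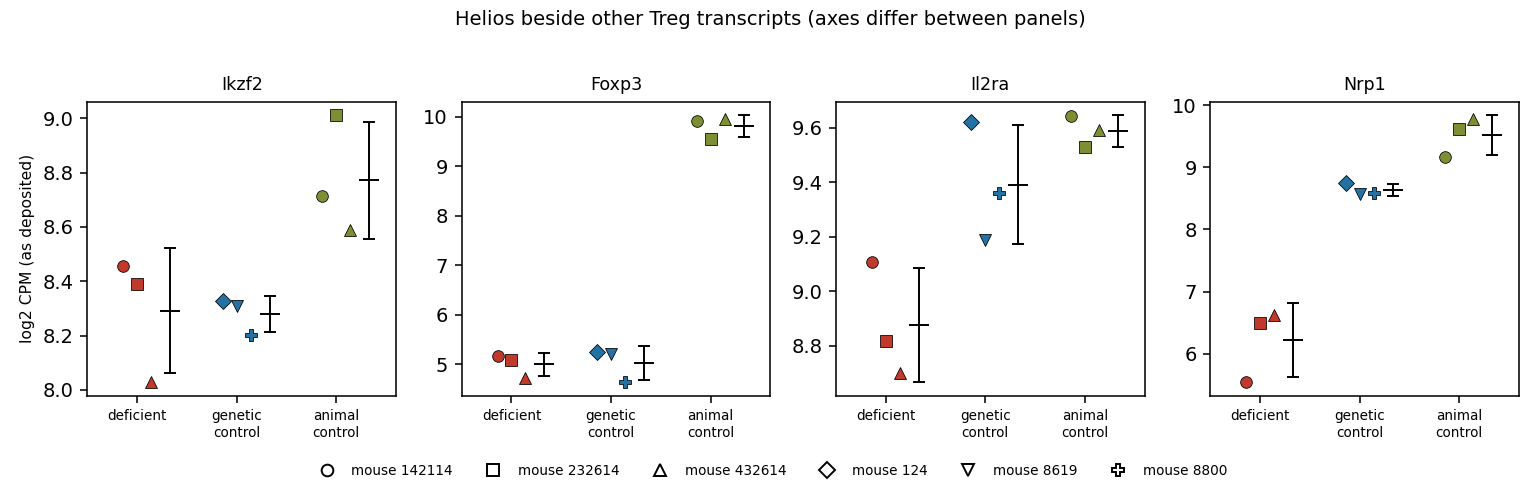
Log2 CPM of Ikzf2 in each library beside Foxp3, Il2ra and Nrp1 in the same libraries, by group. The vertical axes differ between panels; bars give the mean and SD of the log2 values (n = 3 each). Foxp3 sets both YFP+ groups apart from the animal controls, and Nrp1, at 46.5 to 98.5 CPM in deficient cells, is lower there than in every library of both controls.

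Eos, the Foxp3 corepressor partner, varied widely among the libraries of each control group, and the 3 groups overlapped. Ikzf4 was at 245, 180.3 and 217 CPM in deficient cells, 312, 187 and 398 CPM in genetic controls and 255, 332 and 168 CPM in animal controls. The lowest genetic control lay within the range of the deficient cells, and the animal controls spanned it on both sides. Means were 214 ± 32.3, 299 ± 106 and 252 ± 82.2 CPM (deficient, genetic control and animal control cells; SD, n = 3 each). The log2 fold change of deficient cells was -0.43 ± 0.31 against genetic controls (95% interval -1.12 to 0.26, adjusted p = 0.691) and -0.19 ± 0.31 against animal controls (-0.88 to 0.50, adjusted p = 0.887). Without genetic control 8619 the log2 fold change against genetic controls was -0.73, and without genetic control 8800 it was -0.19. Both intervals include no difference as well as a difference of -0.88. Within the 3 mice the differences from the animal control were -0.06, -0.88 and 0.37, and without animal control 232614 the mean difference turned to 0.04.

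Ikaros, expressed throughout the lymphoid lineage, had similar means in the 3 groups. Ikzf1 read 211, 258 and 258 CPM in deficient cells, 183, 229 and 248 CPM in genetic controls and 240, 196 and 192 CPM in animal controls, with all 3 groups overlapping. Its log2 fold change was 0.14 ± 0.17 against genetic controls (95% interval -0.24 to 0.53, adjusted p = 0.837) and 0.21 ± 0.17 against animal controls (-0.17 to 0.60, adjusted p = 0.713).

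Aiolos, which is induced as lymphocytes mature and are activated, spread more widely. Ikzf3 measured 215, 181 and 138 CPM in deficient cells, 97.2, 131 and 204 CPM in genetic controls and 95.1, 177 and 109 CPM in animal controls. The highest library was a deficient one and the lowest an animal control, both from mouse 142114, yet the groups overlapped. The fold changes were 0.35 ± 0.32 (95% interval -0.38 to 1.07, adjusted p = 0.785) against genetic controls and 0.52 ± 0.32 (-0.21 to 1.24, adjusted p = 0.593) against animal controls, on the log2 scale. Against genetic controls the estimate ran from 0.10 without genetic control 124 to 0.63 without genetic control 8800. All 3 within-mouse differences from the animal control were above 0 (1.18, 0.03 and 0.34).

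Pegasus had the lowest level and the widest error. Ikzf5 read 38.3, 26.0 and 53.2 CPM in deficient cells, 16.6, 19.0 and 49.6 CPM in genetic controls and 4.40, 29.0 and 26.6 CPM in animal controls. The low animal control library is that of mouse 142114. Its log2 fold changes of 0.59 ± 0.76 (95% interval -1.10 to 2.28, adjusted p = 0.851) against genetic controls and 1.32 ± 0.76 (-0.37 to 3.01, adjusted p = 0.543) against animal controls did not pass. The estimate against animal controls was 0.44 without that library, and the estimate against genetic controls ran from 0.29 without genetic control 124 to 1.08 without genetic control 8800. Ikzf5 also lies within the annotated span of Fgfr2, a growth factor receptor gene on the same strand. Fgfr2 has no row under that symbol in the deposited values, so its level is unknown. Reads from any shared exons could not be separated by strand. The annotated span of Pstk, a kinase gene of selenocysteine synthesis on the opposite strand, overlaps 7 annotated exons of Ikzf5, counted over all isoforms. Whether exons of Pstk itself overlap them was not examined. Pstk read 4.70 to 13.7 CPM in deficient cells, 7.63 to 10.5 CPM in genetic controls and 3.06 to 6.09 CPM in animal controls. The sources used here do not say whether reads were counted by strand, so reads from any exons shared with Pstk cannot be told apart either. At Ikzf2 the span of the opposite-strand gene Gm29114 overlaps 5 annotated exons, counted in the same way. Gm29114 stayed at or under 2.01 CPM in deficient cells, 10.02 CPM in genetic controls and 0.157 CPM in animal controls, far below Ikzf2 itself.

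**Figure D3:**
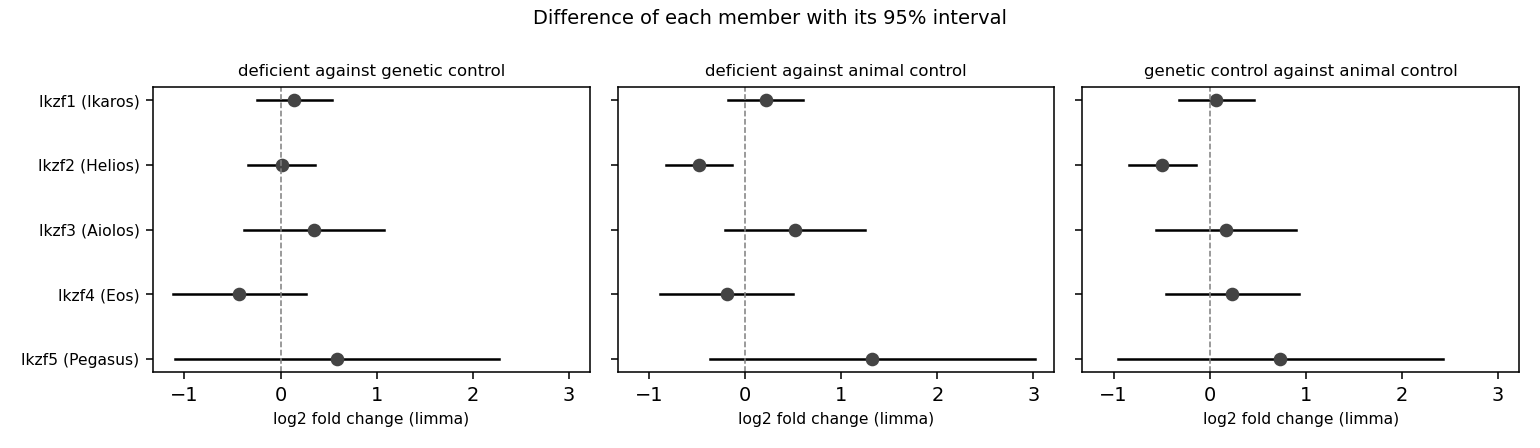
Log2 fold change of each member with its 95% interval (limma-trend, unadjusted per gene) in the 3 comparisons; the vertical line marks no difference. The 2 intervals that exclude 0 are those of Ikzf2 against animal controls, and the Ikzf5 intervals are the widest.

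Between genetic and animal controls, both of which keep Thpok and LRF, the other 4 members gave log2 fold changes of 0.07 ± 0.17 for Ikzf1, 0.17 ± 0.32 for Ikzf3, 0.24 ± 0.31 for Ikzf4 and 0.74 ± 0.76 for Ikzf5, with adjusted p of 0.928 or above. All 4 estimates lie above 0 and the estimate for Ikzf2 lies below it.

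Levels were compared between members per kilobase of annotated exon. In deficient cells Ikzf1 was highest at 42.0 ± 4.67 CPM per kb, followed by Ikzf4 at 35.7 ± 5.39, Ikzf2 at 27.2 ± 4.16, Ikzf3 at 20.3 ± 4.39 and Ikzf5 at 6.85 ± 2.39 (SD, n = 3). Only the step between Ikzf3 and Ikzf5 separated neighbours in that order; the other neighbouring ranges overlapped. In genetic controls the order was Ikzf4 (49.9 ± 17.6 CPM per kb), Ikzf1 (38.1 ± 5.85), Ikzf2 (26.8 ± 1.23), Ikzf3 (16.5 ± 6.25) and Ikzf5 (4.96 ± 3.22), and only Ikzf4 and Ikzf1 overlapped as neighbours. In animal controls Ikzf4 (42.0 ± 13.7), Ikzf2 (37.9 ± 5.83) and Ikzf1 (36.2 ± 4.57) overlapped, and Ikzf3 (14.5 ± 5.01) and Ikzf5 (3.49 ± 2.37 CPM per kb) each stood below. Eos, Ikaros and Helios were thus the 3 most abundant members in every group by this measure, and Pegasus the least abundant. The place of Aiolos depends on the length used: its annotated exons cover 8754 bases but its longest coding transcript 3658, and per kilobase of the longest coding transcript Ikzf3 led in deficient cells (48.7 CPM per kb), with only Ikzf5 separate from its neighbour in any group.

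**Figure D4:**
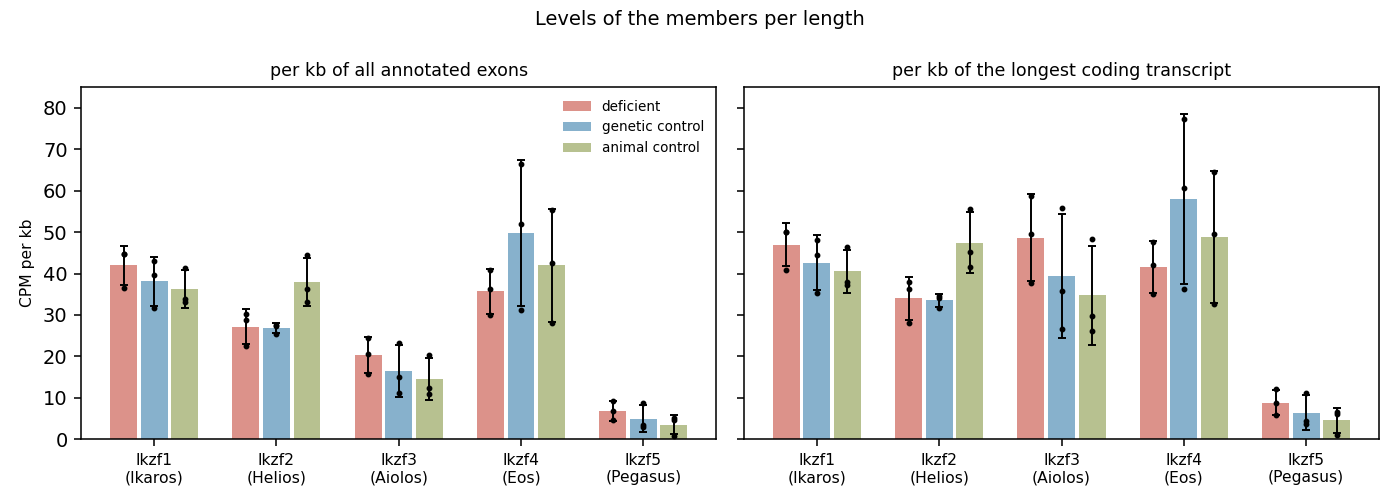
Level of each member per kilobase of all annotated exons (left) and of the longest coding transcript (right), in CPM per kb on a linear axis from 0. Bars are group means with SD (n = 3 each) and dots are libraries; Ikzf5 lies lowest in all 3 groups on both scales, whereas Ikzf3 moves up with the shorter length.

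The summed level of the family overlapped among the 3 groups, at 128 to 139 CPM per kb in deficient cells, 117 to 167 in genetic controls and 111 to 159 in animal controls. Helios made up 17.5% to 22.4% of that sum in deficient cells, 15.2% to 23.4% in genetic controls and 27.4% to 29.8% in animal controls. Eos made up 23.3% to 29.4%, 26.8% to 41.5% and 25.1% to 34.8% in the same groups. These shares describe per-length transcript levels in libraries and were not tested.

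No gene of the complexes through which the family acts was called. None of the 13 genes of the Mi-2/NuRD complex was called against either control. The median log2 fold changes were 0.21 against genetic controls and 0.19 against animal controls. In each comparison 1 of 13 had an unadjusted p under 0.05. It was Hdac1, at 401 ± 33.5 CPM in deficient cells, 312 ± 40.0 CPM in genetic controls and 265 ± 34.5 CPM in animal controls (SD, n = 3 each). Its log2 fold changes were 0.37 and 0.60 (limma adjusted p = 0.413 and 0.118), and its deficient libraries overlapped neither control. Chd4, the Mi-2β ATPase of the complex, averaged 299 ± 52.7 CPM in deficient cells, 221 ± 85.5 CPM in genetic controls and 247 ± 36.0 CPM in animal controls (SD, n = 3 each), with adjusted p of 0.548 and 0.766. The Sin3 corepressor genes and those of CtBP, a binding partner of Eos, also gave 0 of 6 calls against either control, with medians of 0.11 and 0.18 and with 1 and 0 genes at an unadjusted p under 0.05. Of the cereblon ligase, 0 of 6 genes were called in each comparison (medians -0.13 and 0.20), but 2 of 6 against genetic controls and 4 of 6 against animal controls had an unadjusted p under 0.05, beside 10.6% and 11.9% of all genes. Dda1, a small subunit of the ligase, averaged 198 ± 46.2 CPM in deficient cells, 86.9 ± 27.9 CPM in genetic controls and 77.7 ± 41.9 CPM in animal controls (SD, n = 3 each; log2 fold changes 1.20 and 1.47, adjusted p = 0.291 and 0.167). Ddb1, the adaptor that joins the receptor to the cullin, averaged 283 ± 10.7, 380.2 ± 56.4 and 394 ± 93.3 CPM in the same groups (-0.42 and -0.45, adjusted p = 0.463 and 0.370). In both genes the deficient libraries did not overlap either control. Crbn, the substrate receptor, differed by -0.41 (adjusted p = 0.645) and -0.65 (adjusted p = 0.385).

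Eos belongs to a described set of factors that work with Foxp3 in Treg cells, with Irf4, Satb1, Lef1 and Gata1. Of these 6 genes, Foxp3 included, 0 were called against genetic controls (median -0.02), and 1, Foxp3, was called against animal controls (median -0.25). Over all genes 0.869% and 0.891% were called. In each comparison 2 of 6 had an unadjusted p under 0.05, beside 10.6% and 11.9% of all genes. The groups did not overlap in 2 and 3 of 6, beside 15.7% and 15.9% of all genes. Irf4, a factor of activated Treg cells, read 22.2, 4.98 and 40.0 CPM in deficient cells, 63.0, 67.3 and 45.9 CPM in genetic controls and 87.4, 22.6 and 64.0 CPM in animal controls. All 3 deficient libraries were below all genetic controls, and the spread between libraries left the adjusted p at 0.430. Satb1, a chromatin organiser that Foxp3 represses, read 961, 998 and 616 CPM in deficient cells, 597, 613 and 566 CPM in genetic controls and 512, 430 and 301 CPM in animal controls. Each deficient library exceeded every control library. The log2 fold changes were 0.50 (adjusted p = 0.455) and 1.05 ± 0.22 (adjusted p = 0.0680), and the second passed (adjusted p = 0.0343) when only genes of at least 10 CPM were tested, or without deficient 432614 (0.0299).

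**Figure D5:**
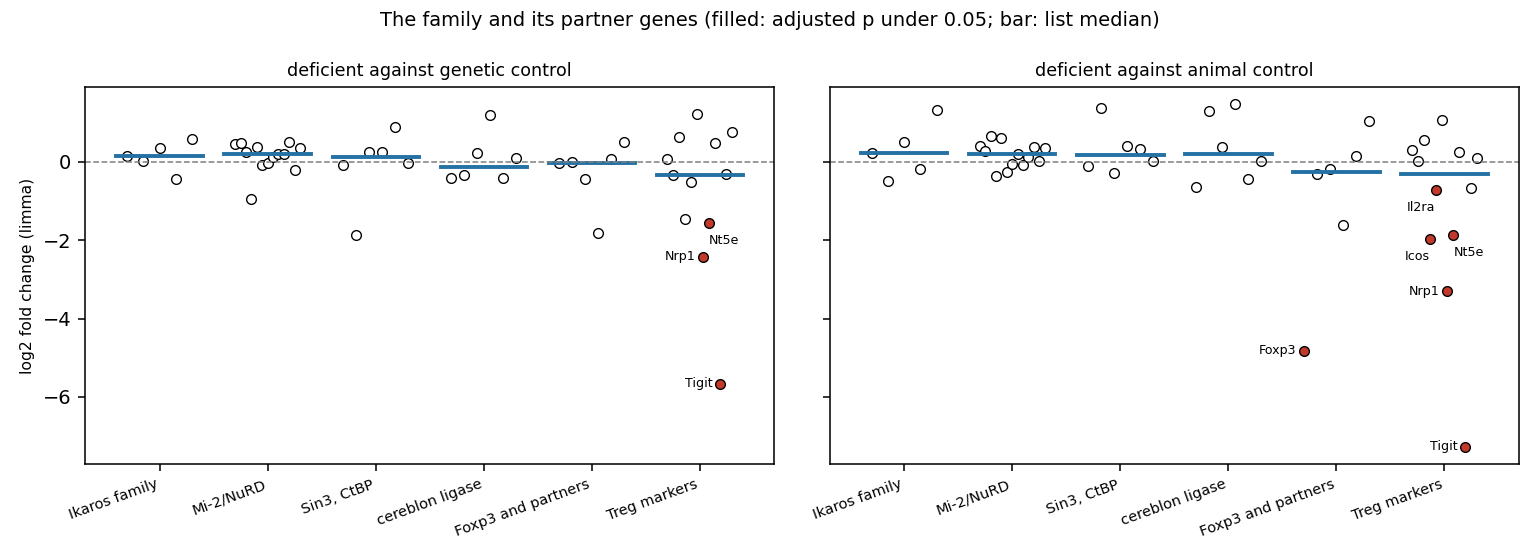
Log2 fold changes of deficient cells against genetic and animal controls for single genes of the family, the partner lists and the Treg marker list, with the list medians as bars. Filled points passed the adjusted threshold and are labelled: none belongs to the Ikaros family or to the Mi-2/NuRD, Sin3/CtBP and cereblon lists, 1 is Foxp3 and the rest are Treg markers.

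Several markers described with Helios in thymus-derived and activated Treg cells were called although Ikzf2 was not, and the list went in both directions. Of 12 such genes, 3 fell against genetic controls and 0 were called higher, with a median log2 fold change of -0.32: Nrp1, a semaphorin receptor of thymus-derived Treg cells, Nt5e, the CD73 ectoenzyme, and Tigit, an inhibitory receptor. Against animal controls 5 fell and 0 were called higher (median -0.32), adding Icos, a costimulatory receptor, and Il2ra. Over all genes 0.869% and 0.891% were called, and the median was 0.04 in both comparisons. At an unadjusted p under 0.05 there were 8 of 12 in each comparison, beside 10.6% and 11.9% of all genes. The 8 were 5 lower and 3 higher against genetic controls and 6 lower and 2 higher against animal controls. The estimates above 0 among them were those of Itgae, the CD103 integrin chain (1.21 and 1.07, adjusted p = 0.184 and 0.240), Gpr83, a receptor typical of Treg cells (0.64 and 0.56, adjusted p = 0.396 and 0.414), and, against genetic controls, Tnfrsf9, the 4-1BB receptor (0.76, adjusted p = 0.150). Itgae averaged 481 ± 47.1 CPM in deficient cells, 212 ± 55.05 CPM in genetic controls and 249 ± 111 CPM in animal controls (SD, n = 3 each), without overlap between deficient and control libraries. Its difference from genetic controls passed only in the fit without animal control 232614 (adjusted p = 0.0483) and in no other setting. That library is not part of this comparison and enters only the shared estimate of the spread, so the log2 fold change stayed at 1.21. Nrp1 was at 46.5, 90.1 and 98.5 CPM in deficient cells, 429, 382 and 383 CPM in genetic controls and 572, 782 and 879 CPM in animal controls. Every deficient library was below every control library, with log2 fold changes of -2.42 ± 0.27 (adjusted p = 0.00428) and -3.30 ± 0.27 (adjusted p = 6.88e-04). Nt5e fell by 1.56 on the log2 scale against genetic controls (adjusted p = 0.00323) and by 1.87 against animal controls (adjusted p = 9.25e-04). Tigit averaged 0.268 ± 0.185 CPM in deficient cells, 13.0 ± 9.93 CPM in genetic controls and 31.0 ± 6.30 CPM in animal controls (SD, n = 3 each, with adjusted p = 0.0447 and 0.0124). Between genetic and animal controls, which both keep the factors, 0 of the 12 were called (median -0.27). There 2 of 12 had an unadjusted p under 0.05 and 5 of 12 had groups without overlap, beside 6.62% and 10.4% of all genes. Nrp1 was in both counts, lower in genetic controls by a log2 fold change of -0.88 (limma adjusted p = 0.561).

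The calls of this list differ in firmness. Those of Nrp1 and Nt5e held against both controls without any single library, but against genetic controls that of Nrp1 was lost without both genetic control 8619 and animal control 232614 (adjusted p = 0.0838) and that of Nt5e without the variance trend (0.0509). With only the 6 libraries compared in the fit, the Nrp1 call against genetic controls was also lost (0.0562). The call of Tigit against genetic controls was lost in all 9 fits without 1 library (adjusted p = 0.0662 to 0.175), and against animal controls it was lost without any 1 of the 3 animal controls (0.0528 to 0.0714). The call of Icos was lost without animal control 142114 or 432614 (0.0621 and 0.0754). That of Il2ra (log2 fold change -0.71 ± 0.14, adjusted p = 0.0497) was lost without genetic control 8800, deficient 232614 or 432614, or any animal control (0.0788 to 0.140). With the mouse as a fixed block no gene of the table was called against animal controls, the lowest adjusted p being 0.0953, and these 5 genes then stood at 0.0953 to 0.284. The earlier results of these data already showed several of these genes, so the list is no independent evidence.

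Of the genes that Ikaros family factors are known to control, 1 of 7 Notch targets, 0 of 9 cytokine and effector genes and 3 of 3 co-receptor genes were called against genetic controls, where 0.869% of all genes were. Against animal controls the counts were 2 of 7, 1 of 9 and 2 of 3, beside 0.891% of all genes; these lists were put together with earlier results known, so the shares are a description. Of 7 measured Notch target genes that Ikaros represses in thymocytes, Notch3 was called higher against both controls and Il2ra lower against animal controls; the medians were -0.54 and -0.29. Notch3, a receptor of that pathway, read 56.0, 65.9 and 11.1 CPM in deficient cells and at most 0.0357 CPM in genetic controls and 0.213 CPM in animal controls. Its calls (adjusted p = 0.0370 and 0.0363) were lost in 8 of the 9 fits without 1 library in each comparison (up to 0.131 and 0.124); against both controls they held without animal control 232614. Of 9 measured cytokine and effector genes, 0 were called against genetic controls (median -0.06). Against animal controls 1 was called (median 0.01): Il6ra, an interleukin-6 receptor chain, averaged 53.9 ± 14.1 CPM in deficient cells and 128 ± 14.5 CPM in animal controls (log2 fold change -1.28, adjusted p = 0.0406). That call was lost without any 1 of 8 libraries (0.0674 to 0.124), all but deficient 232614. With the mouse as a fixed block the calls of Notch3 and Il6ra against animal controls were lost (0.284 and 0.312). Of the 3 co-receptor genes with elements bound by Ikaros, Cd4 fell and Cd8a rose against both controls and Cd8b1 rose against genetic controls. Cd4 read 381, 329 and 355 CPM in deficient cells, 1026, 678 and 892 CPM in genetic controls and 820, 860 and 988 CPM in animal controls, and Cd8a read 354, 390 and 357 CPM, 13.2, 27.2 and 25.3 CPM and 33.8, 18.7 and 50.9 CPM in the same groups. The groups of deficient and control libraries did not overlap in either gene; their calls against animal controls were lost with the mouse as a fixed block (0.160 and 0.170), and those of Cd4 without the variance trend (0.116 against genetic controls and 0.0971 against animal controls). In the same libraries, summed CD8 T cell markers were 949 to 961 CPM in deficient cells, 128 to 303 CPM in genetic controls and 245 to 272 CPM in animal controls. Cd8a and Cd8b1 are among the 7 genes summed, so the sum is not separate from their values. Of the 7, 5 were called higher against genetic controls (with Runx3, Nkg7 and Xcl1) and 2 against animal controls (Cd8a and Nkg7). The calls of Runx3, Nkg7 and Xcl1 against genetic controls were lost with only the 6 libraries compared (0.0838 to 0.0946). That of Nkg7 against animal controls was lost without the variance trend (0.114). Whether the Ikaros family has a part in the co-receptor differences was not tested. The call of Cd8b1 (adjusted p = 0.0370) was lost in 7 of the 9 fits without 1 library, all but those without genetic control 8619 or animal control 232614 (0.0522 to 0.132).

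B cell, myeloid, NK, erythroid and platelet transcripts were present at low to moderate level, and their part in these values was not tested. None of the 9 measured B cell, 6 myeloid, 4 NK or 6 erythroid and platelet markers was called against either control. Myeloid markers (6 of 10 listed genes measured) summed to 131 to 173 CPM in deficient cells, 96.7 to 485 CPM in genetic controls and 101 to 143 CPM in animal controls. Genetic control 8619 held the highest sum, and its Ikzf4 (187 CPM) was the lowest of its group. Of the erythroid and platelet markers, summed levels ran from 0.833 to 40.8, 0.0917 to 76.1 and 0.0817 to 0.465 CPM in the same order of groups, and of NK cell markers from 7.40 to 17.1, 4.82 to 21.5 and 5.23 to 16.3 CPM. Markers of naive conventional T cells, among which Ikzf2 is normally low, summed to 5148 to 5437 CPM in deficient cells, 5483 to 6106 CPM in genetic controls and 4667 to 5291 CPM in animal controls. Of these 9 genes, Igfbp4 was called lower against genetic controls (log2 fold change -1.96, limma adjusted p = 0.0336). That call was lost with only the 6 libraries compared (0.126), and 0 of 9 were called against animal controls. An unadjusted p under 0.05 was found for 5 and 6 of the 9, beside 10.6% and 11.9% of all genes. Medians were -0.03 and 0.15, and the sum does not show the direction of single genes. The part of such cells was not tested.

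Across the 9 libraries, the genes whose levels most resembled Helios and Eos were listed among 7292 genes, as a description only. The points fall in 3 groups, include pairs of libraries from 3 mice and share a common normalisation, and with so many genes and 9 libraries high coefficients arise readily. Ikzf2 tracked Reps1 (Pearson r = 0.96), Rbm6 (0.92), Ttc19 (0.92), Ddx24 (0.92) and Zfp335 (0.91), and ran opposite to Gtf2h2 (-0.96), Man2b1 (-0.95) and Cul4a (-0.93). Ikzf4 tracked Dffa (0.93), Grb2 (0.88), Bloc1s2 (0.88), Gtf2f2 (0.86) and Znhit6 (0.86), and ran opposite to Cbx8 (-0.98), Nap1l1 (-0.98) and Fbxl14 (-0.93). Every coefficient kept its sign by Spearman's measure and after the group means were removed. Cul4a, the cullin scaffold of the cereblon ligase, was not called (log2 fold changes -0.34 against genetic controls and 1.31 against animal controls; adjusted p = 0.899 and 0.407). Helios and Eos, the Treg-associated pair, had r = 0.12 with each other, and Helios had r = -0.49 with Ikaros.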

How the data were processed

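RNA of sorted Treg cells was amplified by template switching and fragmented with a transposase, per the labels' protocols. The submitters' processing notes name bcl2fastq 1.8.4, STAR 2.4.0h, mm10 and limma without a role. No source used here gives the counting tool, annotation, filter or normalisation. The deposited values are log2 CPM that the authors had normalised. The unit was inferred from linear sums of 999252 to 999256 per library and an identical lowest and highest value in all libraries. Quantile normalisation was likewise inferred from the values, so CPM here are not plain shares of the reads. The table has 13702 rows, of which 4 exact duplicates were dropped.

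Values were used as deposited, without pseudocount or filter. limma-trend (limma 3.58.1, R 4.3.3) fitted group means over 9 libraries, with two-sided tests of 3 contrasts adjusted over 13698 genes (Benjamini-Hochberg, 0.05); the code was tested on simulated data. Replicates are mice by number; pooling of animals is not stated. Deficient and animal control cells came from the same mice, per the series' design text; deviations from group means correlated at 0.0170 to 0.0483 within mice and -0.0304 to 0.00803 between them. The members, the 16 gene lists and the alternatives were chosen with earlier results of these data known. Named genes are the members, Zbtb7b, Zbtb7a, Foxp3, Il2ra, up to 4 called genes per list and comparison, lists of up to 6 genes, and the 5 genes of highest and 3 of lowest Pearson r with Ikzf2 and Ikzf4. Chd4, Hdac1, Ighm, Itgae, Gpr83 and Tnfrsf9 were added after their values were seen. Lengths and sequences come from GENCODE M21 (GRCm38). Alternatives are given at the end.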

Additional observations from a re-analysis of the deposited data

How the results depend on the processing

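No member was called in any of the 18 settings against genetic controls, the 19 against animal controls or the 18 between controls. The signs of small member differences depended on single libraries. Leaving out 1 library, Ikzf2 between deficient cells and genetic controls ranged from -0.0702 to 0.144, and between genetic and animal controls Ikzf1 ranged from -0.0228 to 0.199, Ikzf3 from -0.12 to 0.43, Ikzf4 from -0.02875 to 0.540 and Ikzf5 from -0.15 to 1.21. Ikzf4 between deficient cells and animal controls ranged from -0.456 to 0.0369. Without a turn of sign, deficient cells against genetic controls ranged from 0.0155 to 0.240 for Ikzf1, 0.0975 to 0.633 for Ikzf3, -0.731 to -0.188 for Ikzf4 and 0.293 to 1.08 for Ikzf5; against animal controls Ikzf1 ranged from 0.155 to 0.316, Ikzf3 from 0.335 to 0.783 and Ikzf5 from 0.436 to 1.797. Likewise Foxp3 ranged from -0.23 to 0.10 and Zbtb7a from -0.17 to 0.17 between deficient cells and genetic controls. Without both genetic control 8619 and animal control 232614, Ikzf1 between controls was -0.00774, Ikzf4 between deficient cells and animal controls 0.0369, and Foxp3 between deficient cells and genetic controls 0.0537. The cause was not tested.

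Counts over all genes moved more. Against genetic controls 22 genes were called with the 6 libraries compared, 21 without both named libraries and 48 to 93 without 1 library. Against animal controls the counts were 52, 27 and 58 to 115, and 0 with the mouse as a fixed replicate block (1395 at an unadjusted p under 0.05, against 1632). As a random block, the mouse gave 148 calls against animal controls and 118 against genetic controls, and no member's call changed under either block. Between controls 5 genes were called, 32 without the trend, 3 with the 6 libraries, 1 without both libraries and 4 to 10 without 1 library. For Ikzf2 against animal controls the adjusted p ranged from 0.209 to 0.576, with log2 fold changes from -0.57 to -0.35. Differences of the size of the Ikzf4 and Ikzf5 intervals cannot be resolved with 3 libraries per group.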
